A study of Homo sapiens with 4 samples.

Results

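CDX1 and CDX2 are the human caudal-type homeobox genes described here, followed in stem cells and in blastoids made from them. They were taken by name, as 2 of the 23364 genes that the 4 single-cell tables list, and both were read in every table. Stem cells of the established human embryonic line KhES1, kept in mTeSR-1 medium, were compared with blastoids, which are aggregates of such cells grown to resemble a blastocyst. The aggregates were formed in Aggrewell plates, held in a PNIPAAm-PEG hydrogel and cultured in iBlastoid medium, and no transgene, knockout or drug treatment is named for any sample. There were 2 stem cell samples (hESC 1 and hESC 2) and 2 blastoid samples (blastoid 3 and blastoid 4), all from 1 line. The titles give the blastoid samples the same day as the stem cells while the names of their tables give a later one, so the description of each sample decided its group and no day is given. No label says that the samples of a group are separate cultures, so every p-value here rests on a spread that may be technical. Between stem cells and blastoids it is the spread between samples of a group. In comparisons of cells within the blastoid samples it is the spread of the within-sample difference over 2 samples.

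Caudal genes encode homeodomain transcription factors that give posterior identity to the embryo. In the gastrulating embryo they are switched on in the primitive streak and posterior mesoderm by WNT, FGF and retinoic acid signals and act upstream of the HOX genes. CDX2 is also known as a lineage factor of the mouse trophectoderm, as a gene of early human trophectoderm and amnion, and, with CDX1, as a regulator of the intestinal epithelium.

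In the GRCh38 build, CDX1 lies on the plus strand at chr5:150166795-150184558 and CDX2 on the minus strand at chr13:27962137-27971139, in the GENCODE 29 annotation. The coding sequence is 798 bases long in CDX1 and 942 bases in CDX2. The stretch where they are most alike is shown because reads from it could be credited to the wrong gene. It lies in coding exons, at bases 466 to 555 of the CDX1 coding sequence and 562 to 651 of the CDX2 coding sequence, counted from the start codon, and capitals mark the 14 of 90 bases that differ.
CDX1: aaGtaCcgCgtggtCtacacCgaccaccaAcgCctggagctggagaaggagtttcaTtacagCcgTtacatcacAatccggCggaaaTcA
CDX2: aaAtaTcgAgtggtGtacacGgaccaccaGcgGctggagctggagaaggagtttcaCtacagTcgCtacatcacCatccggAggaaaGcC
The longest run that the transcripts share is 23 bases, inside this window. The libraries were built from the 3′ ends of transcripts, so most reads are expected downstream of it.

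Each captured molecule was tagged with a unique molecular identifier, so that a UMI count is a count of molecules and not of reads. Cells with at least 500 genes were kept, and they numbered 2238 in hESC 1, 3172 in hESC 2, 2278 in blastoid 3 and 1916 in blastoid 4, with median depths of 4994.5 to 8798 UMIs and 13255214 to 17679447 UMIs per sample. Some barcodes occurred in more than 1 table: 1035 were shared by blastoid 3 and blastoid 4, though none was a kept cell in both. Of kept cells, 1 in blastoid 3 and 4 in blastoid 4 carried the barcode of a kept stem cell. Levels are given as UMIs per 1e6 UMIs of the sample or sum (CPM). Without the shared cells CDX2 stood at 68.09 CPM in blastoid 3 and 49.56 CPM in blastoid 4, and CDX1 at 7.484 and 4.197 CPM. The 12 pluripotency genes tested summed to 4702 and 4923 CPM in the stem cell samples and to 986 and 905 CPM in the blastoids, and 11 of them were lower in blastoids, where 22.8% of all genes tested were called lower. The 8 genes that respond to cell dissociation were all higher in blastoids, as were 27.1% of all genes, at 1216 and 1578 CPM against 228 and 223 CPM in stem cells, and their part in the results was not tested. No cluster carried enough markers to be named hypoblast-like, a lineage of the blastocyst, and the 8 hypoblast and endoderm genes summed to 19.9 and 10.52 CPM in blastoids against 2.49 and 3.59 CPM in stem cells. In sums over whole samples, fewer cells of a type and less RNA per cell cannot be told apart.

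CDX2 and CDX1 transcripts were found in blastoids and in none of the kept stem cells. CDX2 had 1028 UMIs in 654 cells of blastoid 3, which is 68.05 CPM, and 877 UMIs in 532 cells of blastoid 4, which is 49.61 CPM. CDX1 had 113 UMIs in 89 cells of blastoid 3 (7.48 CPM) and 74 UMIs in 65 cells of blastoid 4 (4.19 CPM). In hESC 1 and hESC 2 both genes had 0 UMIs. Blastoid 3 was the higher of the blastoid samples for both genes, and the groups did not overlap.

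Neither gene has a row in the stem cell tables, whose genes had UMIs in at least 3 barcodes with few exceptions. A gene without a row was therefore taken as present in up to 2 barcodes per table, whose exact upper limit is 9.154 counts over both tables. On that reading CDX2 was at least 169.7-fold higher in blastoids and CDX1 at least 16.7-fold higher. The edgeR quasi-likelihood test instead took the missing rows as 0 UMIs (adjusted p = 1.45e-05 for CDX2 and 0.000397 for CDX1). Both genes could be tested only through their blastoid counts and could only come out higher, so these calls are a description. Of the 16331 genes tested, 49.9% were called in this comparison and 27.1% were called higher, so a call alone sets a gene little apart. Without hESC 2, the lower bounds fell to 110.5 for CDX2 and 10.8 for CDX1.

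The third caudal gene, CDX4, which is known from the posterior embryo and blood formation, was present in both groups. Its levels were 9.33 CPM in blastoid 3 and 2.15 CPM in blastoid 4, against 1.36 CPM in hESC 1 and 1.57 CPM in hESC 2. The blastoid samples lay above the stem cell samples, but blastoid 4 only narrowly (log2 difference 1.79, SE 0.63, edgeR adjusted p = 0.0493).

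Genes that caudal factors are known to act on or answer to were read in the same sums over whole samples. All HOX genes tested were higher in blastoids, 10 of groups 9 to 13, 11 of groups 5 to 8 and 10 of groups 1 to 4. Their summed levels were 0 in both stem cell samples. A HOX gene could thus be tested only through its blastoid counts and could only come out higher, so these counts are a description. HOXB9 was at 84.6 and 51.1 CPM and HOXA10 at 77.0 and 48.8 CPM in blastoid 3 and blastoid 4. Of the 18 WNT, FGF and retinoic acid genes tested 16 were higher, where 27.1% of all genes tested were called higher. Among them DKK1, LGR5, WNT8A and ALDH1A2 had 0 UMIs in the stem cell samples and SP5 had 2. These genes entered the test through their blastoid counts and could only come out higher, so for them the call is a description. CYP26A1 and RARG were not called. LEF1, a nuclear effector of WNT signals, was at 145 and 98.0 CPM in blastoids against 1.06 and 0.630 CPM in stem cells (log2 7.05, SE 0.29, edgeR adjusted p = 9.45e-06).

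Among the intestinal genes that caudal factors regulate, KLF5, a factor of epithelial growth, was at 13.5 and 18.8 CPM in blastoids against 0.905 and 1.76 CPM in stem cells (log2 3.45, SE 0.34, edgeR adjusted p = 0.000256). VIL1, the microvillus protein villin, was lower, at 2.05 and 0.679 CPM against 3.55 and 3.02 CPM (log2 −1.43, SE 0.45, edgeR adjusted p = 0.0343), and GUCY2C was not called.

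A cell shows a low gene more often when it is sequenced deeper, so each cell was also thinned at random to 2000 UMIs, and 8047 of 9604 cells were deep enough. At that depth CDX2 was seen in 258 of 2171 cells of blastoid 3, which is 11.9% (exact 95% interval 10.6 to 13.3), and in 153 of 1874 cells of blastoid 4, which is 8.16% (6.96 to 9.50). CDX1 was seen in 32 cells of blastoid 3, 1.47% (1.01 to 2.07), and in 11 cells of blastoid 4, 0.587% (0.293 to 1.05). In the stem cell samples both genes were seen in 0 of 1803 and 0 of 2199 cells, and no limit is set on these shares because the genes have no row in those tables.

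The mean share was 10.02% ± 2.63 (SD, n = 2) for CDX2 and 1.03% ± 0.627 (SD, n = 2) for CDX1. An exact two-sided permutation test gave p = 0.33 for each gene, the smallest value that 2 samples against 2 allow. Without blastoid 3 the CDX1 share was 0.587%. Without thinning, CDX2 was seen in 28.7% of blastoid 3 cells and 27.8% of blastoid 4 cells, and CDX1 in 3.91% and 3.39%. All intervals here cover counting error only.

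Most cells that held a caudal UMI held a single one. Of the CDX2 cells of blastoid 3, 420 had 1 UMI, 146 had 2 and 88 had 3 or more, up to 8 in a cell. In blastoid 4 the same counts were 328, 122 and 82, up to 9 in a cell. Of the CDX1 cells, 69 of 89 and 57 of 65 had 1 UMI. Cells without a UMI can therefore still transcribe either gene, and a cell called undetected is only that.

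To see which cells carried the genes, cells of all samples were clustered with the caudal genes left out, and clusters were named from fixed markers where at least 3 were detected. Because the clusters were made from the same cells, their levels are a description with no test, and the names were rebuilt here. Both genes were highest in 1 cluster, which stayed unnamed and was led by MESP1, HOXA-AS3, MSGN1, PENK, LHX1 and HOXA3. It had 11 mesoderm/mesenchyme markers detected but 0 of them among its 10 leading genes, which held 4 markers of another class. MESP1 encodes a factor of nascent mesoderm, and MSGN1 one of presomitic mesoderm. The cluster held 226 cells of blastoid 3 and 41 of blastoid 4.

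In the MESP1 and MSGN1 cluster CDX2 stood at 194.8 CPM in blastoid 3 (exact 95% interval 174 to 217) and 199.4 CPM in blastoid 4 (160 to 245). CDX1 stood at 33.3 CPM (25.3 to 43.2) and 42.6 CPM (25.6 to 66.5). The samples agree within counting error for both genes, although the cluster made up 9.92% of blastoid 3 cells and 2.14% of blastoid 4 cells. It held 50.4% of the CDX1 UMIs of blastoid 3 and 25.7% of those of blastoid 4, and 32.4% and 10.15% of the CDX2 UMIs. CDX4 was at 60.2 CPM in that cluster in blastoid 3 and at 22.4 CPM in blastoid 4, its highest level in both samples.

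**Figure D1:**
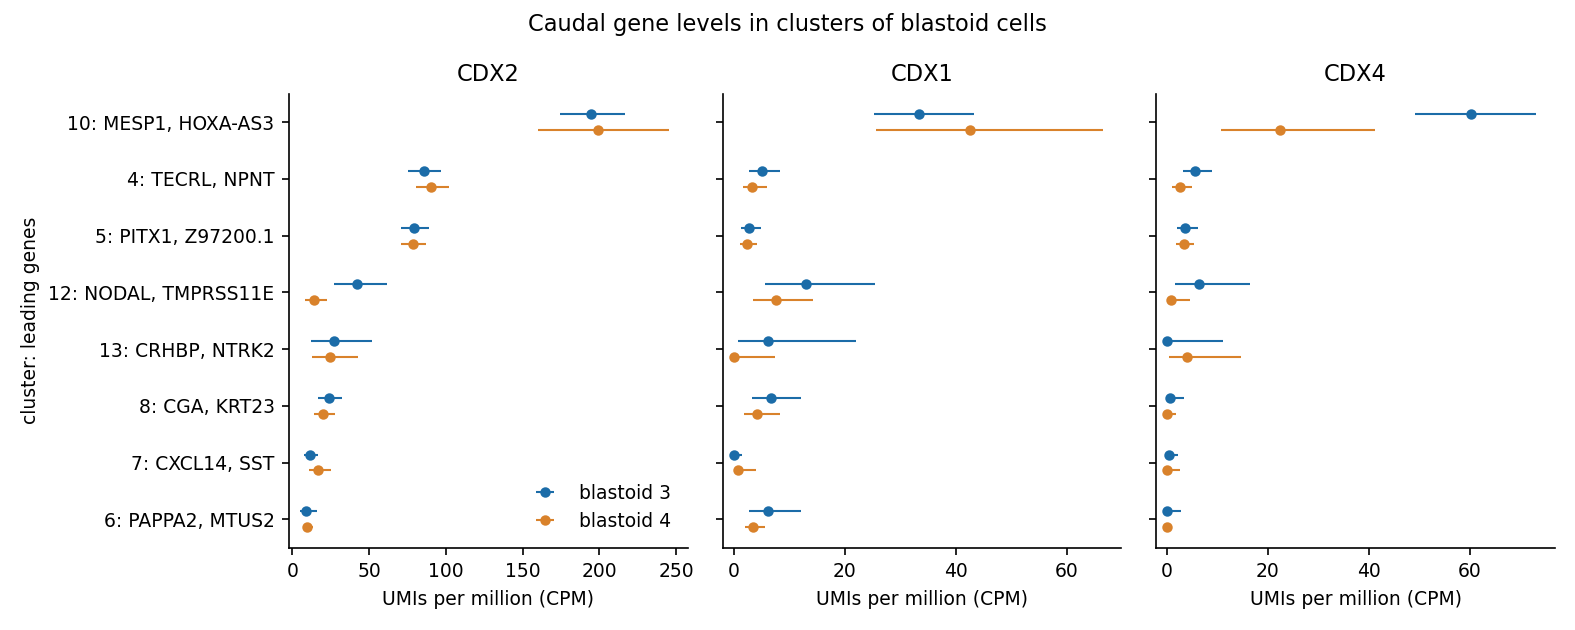
Levels of CDX2, CDX1 and CDX4 (CPM, x axes differ) in the 8 blastoid clusters with at least 20 cells in each blastoid sample, named by number and leading genes. Points are samples and bars are exact 95% counting intervals; all 3 genes are highest in the MESP1 cluster, where CDX2 is at 194.8 and 199.4 CPM.

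Below that cluster the order of the paralogues parted. CDX2 was next highest in a pair of mesoderm/mesenchyme-like clusters: 85.8 and 90.7 CPM in the one led by TECRL and NPNT, and 79.6 and 78.8 CPM in the one led by PITX1 and PBK, whose leading genes include HOXA9. Their samples do not overlap, but their counting intervals do. The TECRL cluster held 25.0% of the CDX2 UMIs of blastoid 3 and 31.8% of those of blastoid 4, and the PITX1 cluster 31.0% and 42.5%. CDX1 was low in the same cells, at 5.00 and 3.25 CPM and at 2.74 and 2.32 CPM.

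By CPM, CDX1 was instead next highest in the pluripotent-like cluster of blastoids, led by NODAL and TMPRSS11E. The name rests on 10 pluripotency markers detected, none among its 10 leading genes, and at resolution 0.3 a larger cluster led by the same 2 genes was classed as trophectoderm/amnion-like, with 11 markers. NODAL is a ligand of the pluripotent epiblast and the primitive streak. There CDX1 stood at 12.9 CPM in blastoid 3 and 7.53 CPM in blastoid 4, from 8 and 9 UMIs in 61 and 91 cells, and both samples lay above every value of the clusters below it, although the counting intervals overlap. CDX2 was at 42.1 and 14.2 CPM there, and this spread takes in the values of the clusters led by CRHBP (27.4 and 24.4 CPM), also mesoderm/mesenchyme-like, and by CGA.

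The trophectoderm/amnion-like cells carried little CDX2. The cluster led by CGA, KRT23 and CYP19A1, genes of placental hormone synthesis and epithelium, had 23.8 and 20.2 CPM. The cluster led by PAPPA2, MTUS2 and IGFBP7, with VTCN1 and ITGB6 among its leading genes, had 9.19 and 9.88 CPM, the lowest CDX2 level of the 8 clusters, though its counting interval overlaps that of the CXCL14 cluster. CDX1 was at 6.72 and 4.25 CPM in the former and at 6.13 and 3.45 CPM in the latter. These CDX1 values overlap those of the TECRL cluster and do not differ beyond the spread of the samples.

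CDX1 was lowest in the mesoderm/mesenchyme-like cluster led by CXCL14, SST and MGP, with 0 UMIs in 383 cells of blastoid 3 and 1 UMI in 169 cells of blastoid 4. CDX2 was at 11.9 and 16.8 CPM in these cells. At 2000 UMIs per cell, CDX2 was seen in 2.63% and 2.96% of them and in 1.85% and 0.917% of the PAPPA2 cells, against 33.5% and 21.9% of the MESP1 and MSGN1 cluster and 15.2% and 14.7% of the TECRL cluster. Median depths were 5780 and 7478 UMIs in the CXCL14 cells, 5894.5 and 9226.5 in the PAPPA2 cells, 7073.5 and 11328 in the MESP1 and MSGN1 cluster and 5098 and 7031 in the TECRL cluster. Free RNA in droplets can give UMIs in cells that do not transcribe a gene. Its part in the CDX1 and CDX2 UMIs of the CXCL14 and PAPPA2 cells was not tested, so neither gene is read as expression there. CDX4 had 0 UMIs in the PAPPA2 cells of both samples.

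CDX1 made up a larger part of the CDX1 and CDX2 UMIs in the MESP1 and MSGN1 cluster than in the mesoderm/mesenchyme-like clusters that were next highest in CDX2. A UMI counts 1 molecule whatever its length, but how well each gene is captured is unknown, so the ratio is compared between cells and not between genes. The part was 14.6% in blastoid 3 (exact 95% interval 11.3 to 18.5) and 17.6% in blastoid 4 (10.9 to 26.1) in the MESP1 and MSGN1 cluster. In the PITX1 cluster it was 3.33% (1.68 to 5.89) and 2.86% (1.44 to 5.07), and in the TECRL cluster 5.52% (3.12 to 8.93) and 3.46% (1.67 to 6.27). The intervals of the MESP1 and MSGN1 cluster do not reach those of the PITX1 and TECRL clusters in either sample. In the NODAL cluster the part was 23.5% (10.8 to 41.2) and 34.6% (17.2 to 55.7). In the CGA cluster it was 22.0% (11.5 to 36.0) and 17.4% (7.82 to 31.4). These intervals overlap those of the MESP1 and MSGN1 cluster, so a larger part was not particular to that cluster. In the PAPPA2 cells, where neither gene is read as expression, 8 of 20 UMIs in blastoid 3 and 15 of 58 in blastoid 4 were of CDX1. The part of free RNA in them was not tested.

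**Figure D2:**
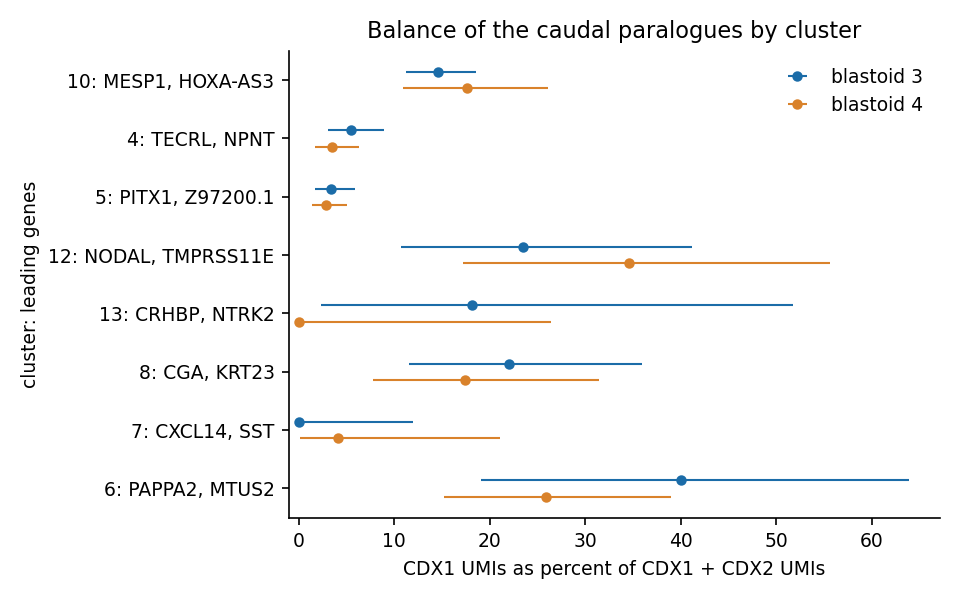
CDX1 UMIs as a percent of CDX1 and CDX2 UMIs together (x axis) in each blastoid cluster, with exact 95% counting intervals and 1 point per sample. The TECRL and PITX1 clusters sit between 2.86% and 5.52%, and the MESP1 cluster at 14.6% and 17.6%. The NODAL cluster sits at 23.5% and 34.6%, and the CGA cluster at 22.0% and 17.4%.

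CDX1 cells often held CDX2. In blastoid 3, 50 of 89 CDX1 cells also had a CDX2 UMI, 56.2% (45.3 to 66.7), against 27.6% of cells without CDX1. In blastoid 4 it was 31 of 65, 47.7% (35.1 to 60.5), against 27.1%. The CDX1 cells were deeper, with median depths of 8031 and 10905 UMIs against 6147 and 8731. Over all cells CDX2 was 126 and 103 CPM in CDX1 cells and 64.9 and 47.3 CPM in the others (log2 difference 1.02, SE 0.15, edgeR adjusted p = 7.65e-10). At 2000 UMIs per cell 9 of 32 and 0 of 11 CDX1 cells had CDX2, and the difference did not pass the test (log2 difference 0.42, SE 0.59, edgeR adjusted p = 1). Within the MESP1 and MSGN1 cluster CDX2 was seen in 78.6% and 86.7% of CDX1 cells and in 74.5% and 73.1% of the others, and the intervals overlap in both samples.

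The next comparison asked which genes differ between cells with and without a CDX2 UMI in the same blastoid sample. UMIs were summed over cells of each kind at 2000 UMIs per cell: 258 and 1913 cells in blastoid 3, 153 and 1721 in blastoid 4. Cells of a sum share their library, so the sums were tested with the sample as a block, and 2 samples leave the spread to be estimated mostly across genes. The edgeR test called 236 of 11476 genes, 2.06%, of which 56 were higher (0.488%) and 180 lower (1.57%) in CDX2 cells. The median depth before thinning was 6257.5 against 6377 UMIs and 9081 against 8868, and the median doublet score was 0.0745 against 0.0589 and 0.0588 against 0.049.

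Amnion genes were lower in CDX2 cells. Of the 9 amnion genes, 8 were tested, and 5 fell and none rose. TFAP2A, a factor of surface ectoderm and amnion, stood at 25.2 and 9.80 CPM in CDX2 cells and at 60.4 and 89.8 CPM in the others. The groups did not overlap, and the difference was −1.89 (log2, SE 0.32, edgeR adjusted p = 1.5e-06). GABRP, a GABA receptor subunit used as an amnion marker, stood at 9.69 and 35.9 CPM against 62.2 and 148 CPM, again without overlap (log2 −2.29, SE 0.30, edgeR adjusted p = 4.03e-11). TFAP2B, VTCN1 and IGFBP3 fell too, by 3.04, 2.01 and 2.03 on the log2 scale. IGFBP3 was not particular to amnion-like cells. It stood at 687 and 516 CPM in mesoderm/mesenchyme-like cells without CDX2. Within that class it also fell with CDX2 (log2 −1.96, SE 0.13, edgeR adjusted p = 1.99e-44). The TFAP2A difference was −3.07 without blastoid 3 and −1.23 without blastoid 4, and at 1000 UMIs per cell it was −0.99 and not called (edgeR adjusted p = 0.434).

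By cell, TFAP2A was seen in 3.88% of CDX2 cells of blastoid 3 (1.87 to 7.01) and 9.25% of the others (7.99 to 10.6), and in 1.96% (0.406 to 5.62) and 13.6% (12.0 to 15.3) in blastoid 4. GABRP was seen in 1.55% (0.424 to 3.92) against 7.84% (6.68 to 9.14), and in 5.23% (2.28 to 10.0) against 18.9% (17.1 to 20.8). The intervals do not overlap in either sample for either gene. Without thinning, 7 of the 9 amnion genes fell and none rose, where 19.1% of all genes tested were called and 10.9% were called lower.

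Genes shared by trophectoderm and amnion followed: 6 of 11 fell and none rose. They were KRT7, KRT8, KRT18 and KRT19, keratins of simple epithelia, GATA3, a trophectoderm factor, and EPAS1, a hypoxia-responsive factor. KRT7 was at 15.5 and 9.80 CPM in CDX2 cells and at 51.2 and 84.2 CPM in the others (log2 −2.26, SE 0.37, edgeR adjusted p = 2.43e-07). KRT8, far more abundant, differed less, at 704 and 1013 CPM against 965 and 1495 CPM (log2 −0.52, SE 0.08, edgeR adjusted p = 2.26e-07). Of 11 trophoblast genes 3 were tested, and only LRP2 was called (log2 −1.91, SE 0.44).

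HAND1, a bHLH factor of extraembryonic and lateral mesoderm and of trophoblast, was not called. It was at 694 and 1111 CPM in CDX2 cells and at 732 and 856 CPM in the others, and the groups overlapped (log2 0.13, SE 0.09, edgeR adjusted p = 0.687). HAND1 was seen in 70.5% of CDX2 cells and 68.1% of the others in blastoid 3, and in 83.0% and 69.3% in blastoid 4. In blastoid 4 alone it was higher with CDX2 by both CPM and share. Most CDX2 cells held HAND1, as did most cells without CDX2. Without thinning HAND1 rose slightly beside CDX2 (log2 0.29, SE 0.06, edgeR adjusted p = 0.000246).

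The nascent mesoderm genes gave 1 call. MSGN1 was at 63.9 CPM in CDX2 cells of blastoid 3 and 9.80 CPM in those of blastoid 4, against 13.1 and 4.07 CPM in the others of the same sample (log2 2.13, SE 0.37, edgeR adjusted p = 2.23e-06). MESP1 was at 34.9 and 0 CPM against 25.6 and 9.59 CPM, higher with CDX2 in blastoid 3 and not in blastoid 4 (log2 0.11, SE 0.40, edgeR adjusted p = 0.972). That value depended on which UMIs were drawn, since a second random thinning, added after the data were seen, gave a log2 difference of 1.26 with an edgeR adjusted p of 0.0109. Of the 79 MESP1 cells of blastoid 3, 20.3% had CDX2, and of the 26 of blastoid 4 none did.

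Of the mesoderm and mesenchyme list, 5 of 15 genes fell and none rose: POSTN, DCN, LUM, COL3A1 and COL1A2, which encode extracellular matrix proteins. POSTN, or periostin, was at 94.96 and 26.1 CPM in CDX2 cells and at 448 and 132 CPM in the others (log2 −2.26, SE 0.19). COL3A1, a fibrillar collagen, was at 368 and 425 CPM against 1257 and 605 CPM (log2 −1.23, SE 0.10), and the groups did not overlap. The transcription factor genes of the list, among them PITX1, TBX3 and FOXF1, were not called.

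Among posterior HOX genes, of groups 9 to 13, 7 of 16 were tested and HOXB9 alone was called. HOXB9 was at 153 and 78.4 CPM in CDX2 cells and at 83.1 and 52.0 CPM in the others, higher in each sample (log2 0.78, SE 0.19, edgeR adjusted p = 0.00515). HOXA9 was at 71.7 and 62.1 CPM against 48.1 and 31.4 CPM (log2 0.71, SE 0.25, adjusted p = 0.149), and HOXA10 at 98.8 and 85.0 CPM against 70.3 and 50.8 CPM (log2 0.57, SE 0.21, edgeR adjusted p = 0.193). Their groups did not overlap, but neither passed the test. The HOXB9 call was lost with DESeq2, without the block, and without the MESP1 and MSGN1 cluster (log2 0.59, edgeR adjusted p = 0.267). No gene of groups 5 to 8 was called of 7 tested, and in groups 1 to 4 HOXA3 and HOXB4 rose of 7 tested, by 1.62 and 0.94 on the log2 scale. The median difference was 0.57 for the posterior genes tested, 0.31 for groups 5 to 8 and 0.66 for groups 1 to 4, against −0.02 for all genes tested.

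HOXB-AS3, a noncoding RNA of the HOXB cluster, was the gene whose counts followed those of CDX2 most closely from cell to cell. It was at 512 and 389 CPM in CDX2 cells and at 225 and 172 CPM in the others (log2 1.17, SE 0.12, edgeR adjusted p = 1.8e-18). Its Pearson correlation with CDX2 over thinned cells was 0.188 in 2171 cells of blastoid 3 and 0.149 in 1874 cells of blastoid 4, weak as counts this sparse allow and given as a description. AMIGO2, GPC3, MFGE8 and PTMA came next, at 0.106 to 0.119 in the sample with the lower value. HOXB-AS3 and HOXA-AS3 overlap HOX genes, and whether reads were counted by strand is not given in the sources used here, so their reads and those of the HOX genes cannot be told apart.

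Among genes whose mean log2 CPM was 6 or more, the others with the largest rise, in order, were AMIGO2, an adhesion protein; NTS, the neuropeptide neurotensin; GPC3, a heparan sulfate proteoglycan; MYCN, a growth regulator; SMC6; RND3; MCOLN3; and MFGE8, a secreted glycoprotein. AMIGO2 was at 161 and 114 CPM against 70.8 and 41.0 CPM (log2 1.27, SE 0.19, edgeR adjusted p = 1.91e-08), and MFGE8 at 452 and 386 CPM against 258 and 210 CPM (log2 0.82, SE 0.12, edgeR adjusted p = 6.76e-09). Of the largest falls above the same level, IGFBP7 was at 1.94 and 6.54 CPM against 36.6 and 125 CPM (log2 −4.24, SE 0.49), and CXCL14, a chemokine, at 21.3 and 78.4 CPM against 376 and 171 CPM (log2 −2.73, SE 0.21). Both genes lead clusters low in CDX2.

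The signals known to act on caudal genes were tested as a list of 20, of which 13 could be tested. WNT5A, a WNT ligand, was at 473 and 255 CPM in CDX2 cells and at 261 and 160 CPM in the others (log2 0.78, SE 0.13, edgeR adjusted p = 4.5e-07). CYP26A1, which degrades retinoic acid, was at 29.1 and 16.3 CPM against 7.32 and 6.97 CPM (log2 1.71, SE 0.47, edgeR adjusted p = 0.0181). None fell, and the other 11 were not called. Of 10 BMP response genes MSX1 alone was called, higher by 0.57 on the log2 scale. Of 10 intestinal genes that caudal factors regulate 2 were tested and none was called, with a summed level of 22.9 to 29.1 CPM in all 4 sums.

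No pluripotency gene was called higher in CDX2 cells at equal depth. POU5F1 was at 27.1 and 35.9 CPM in CDX2 cells and at 40.2 and 75.5 CPM in the others, lower in each sample without passing the test (log2 −0.83, SE 0.30, edgeR adjusted p = 0.166), and in the second thinning it was 0.01. NANOG and SOX2 had 3 UMIs each in the CDX2 cells. L1TD1 and DPPA4 fell, by 0.83 and 0.77 on the log2 scale, of 11 pluripotency genes tested. Without thinning SALL4, USP44 and LIN28A rose and 6 of the 11 fell, among them POU5F1, NANOG and SOX2. JUN, EGR1 and IER2, of 8 genes that respond to dissociation, were also lower in CDX2 cells, where the list summed to 878 and 1092 CPM against 1260 and 1615 CPM. Their part in the other differences was not tested.

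**Figure D3:**
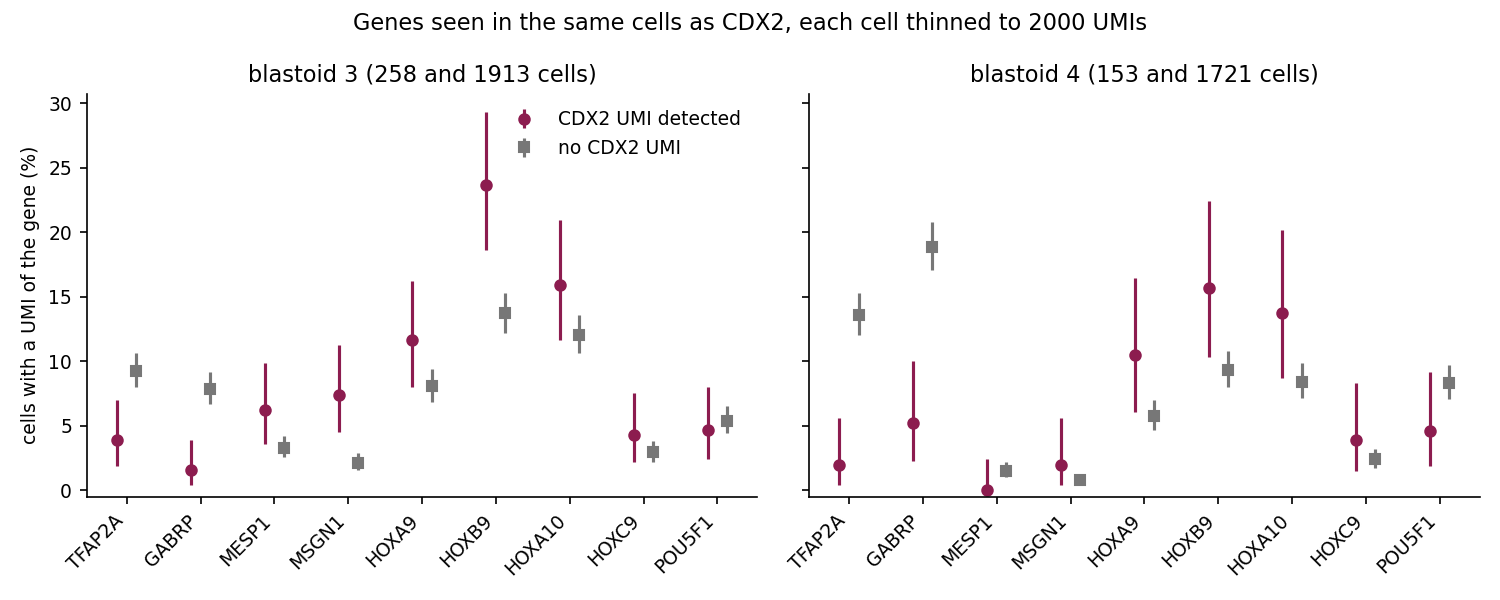
Percent of blastoid cells with a UMI of each gene (y axis) among cells with and without a CDX2 UMI, at 2000 UMIs per cell, with exact 95% intervals and 1 panel per sample. TFAP2A and GABRP lie lower with CDX2 in both samples, and HOXB9 higher, at 23.6% against 13.7% in blastoid 3 and 15.7% against 9.30% in blastoid 4.

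The number of calls in this comparison rested on the tool and the fit. Calls for GABRP, POSTN and HOXB-AS3 held with DESeq2 and without the MESP1 and MSGN1 cluster, and without the block none of TFAP2A, GABRP, POSTN, HOXB-AS3 and HOXB9 was called. DESeq2 called 15 genes and the fit without the block called 2, whereas without thinning 2755 of 14432 genes were called, 19.1%, with 8.16% higher. Without the MESP1 and MSGN1 cluster, an alternative added after the data were seen, 156 genes were called.

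Without thinning, CDX2 cells were deeper, with median depths of 6951 against 5974 UMIs and 9692 against 8400, and more HOX genes passed than at equal depth. Of the posterior genes 6 of 10 rose, HOXD9, HOXB9, HOXD13, HOXA9, HOXC9 and HOXA10; of groups 5 to 8, 7 of 11 rose; and of groups 1 to 4, 5 of 9 rose and HOXB1 fell. HOXA9 was at 70.2 and 66.4 CPM in CDX2 cells and at 36.1 and 22.5 CPM in the others (log2 1.24, SE 0.11). MESP1 was at 47.1 and 22.4 CPM against 19.4 and 5.29 CPM (log2 1.56, SE 0.15), and of MESP1 cells 58.0% and 56.6% had CDX2. The 10 genes of G2 and M phase all rose as well, with a summed level of 2430 and 2165 CPM against 1915 and 1409 CPM, whereas none of them was called at equal depth. Of the 236 genes called at equal depth, 229 were also called in the same direction without thinning. The counts at equal depth were drawn from the same UMIs, so this overlap is no separate support.

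To separate differences between kinds of cells from those within one, the test was repeated inside the mesoderm/mesenchyme-like cells. CDX2 was seen in 161 of these cells of blastoid 3 and not in 1335, and in 129 of blastoid 4 and not in 968, but these cells were unevenly spread over the clusters of the class. In blastoid 3, 84 of 551 cells in the TECRL cluster and 65 of 506 in the PITX1 cluster had CDX2, and 10 of 380 in the CXCL14 cluster. In blastoid 4 the counts were 62 of 421, 61 of 438 and 5 of 169. The edgeR test called 86 of 9750 genes, 0.882%, with 18 higher (0.185%) and 68 lower (0.697%). DESeq2 called 11 and the fit without the block called 1.

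Matrix genes were again lower in CDX2 cells of the class. Of 15 mesoderm and mesenchyme genes 7 fell and none rose: POSTN, DCN, COL3A1, COL1A2, LUM, COL1A1 and the transcription factor gene HAND2. HAND2 was at 201.9 and 108.5 CPM against 319.9 and 175.6 CPM, lower in each sample (log2 −0.66, SE 0.16, edgeR adjusted p = 0.00463). POSTN was at 149 and 31.0 CPM against 638 and 232 CPM (log2 −2.24, SE 0.16), and COL3A1 at 578 and 488 CPM against 1776 and 1029 CPM (log2 −1.39, SE 0.08). SST, the hormone somatostatin, and CXCL14, both leading genes of the CXCL14 cluster, fell by 2.93 and 3.02 on the log2 scale, as did HGF, a growth factor, by 2.05. These genes mark the cluster that holds few of the CDX2 cells, and how far that cluster carries the result was not tested.

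No HOX gene was called within the class, of 18 tested. HOXB9 was at 137 and 69.8 CPM in CDX2 cells and at 95.1 and 87.3 CPM in the others, and the groups overlapped (log2 0.23, SE 0.21, edgeR adjusted p = 0.886). HOXB-AS3 remained called, at 329 and 399 CPM against 212 and 269 CPM (log2 0.62, SE 0.12, edgeR adjusted p = 0.000255). Among genes whose mean log2 CPM was 6 or more, RND3 had the largest rise, from 94.4 and 107 CPM to 202 and 202 CPM (log2 1.02, SE 0.17, edgeR adjusted p = 8.65e-07), followed by AMIGO2, MYCN and GPC3 at 0.79 to 0.89. Of the 86 genes called in the class, 61 were also called in the same direction over all blastoid cells. The class is part of those cells, so this overlap is no separate support. HAND1 did not differ beyond the spread within the class either (log2 −0.01, SE 0.08).

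**Figure D4:**
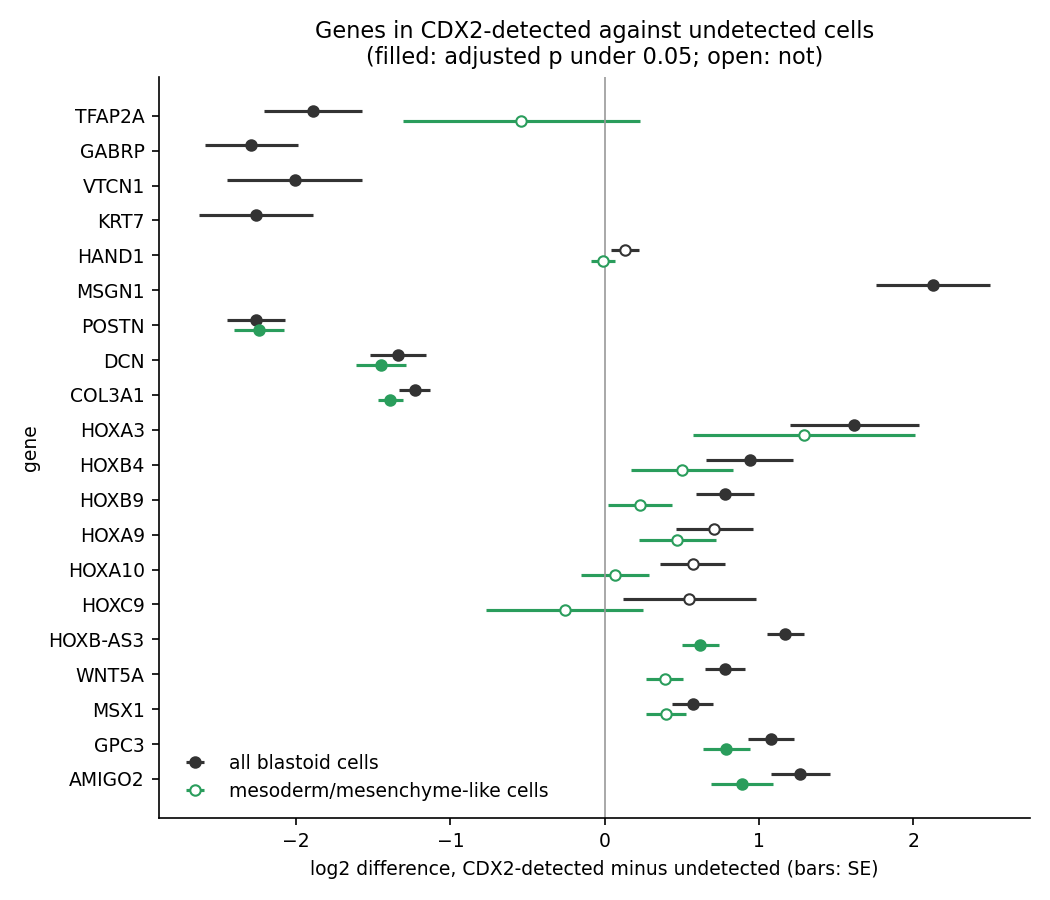
Log2 difference between blastoid cells with and without a CDX2 UMI (x axis, bars are SE) for 20 genes, over all blastoid cells and within the mesoderm/mesenchyme-like class; filled points passed an adjusted p of 0.05, and a gene too low to test in the class has 1 point. TFAP2A, GABRP, VTCN1 and KRT7 lie below 0 over all cells, while POSTN, DCN and COL3A1 lie below 0 in both.

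The same comparison for CDX1 rested on few cells: 32 against 2139 in blastoid 3 and 11 against 1863 in blastoid 4. The edgeR test called 21 of 11047 genes, 0.19%, and all were lower in CDX1 cells. None was higher (0.0%), although 487 genes had an unadjusted p under 0.05, and DESeq2 called 0 genes in all. This split rested on the scaling: with library size only, 6 genes were higher and 16 lower. The median difference over all genes tested was −0.40, so falls were the common direction in these sparse sums.

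Of the 21 genes that fell, 5 were on the mesoderm and mesenchyme list (DCN, POSTN, LUM, COL3A1 and COL1A2), IGFBP3 was on the amnion list and EPAS1 on the one shared with trophectoderm. IGFBP3 was also high in mesoderm/mesenchyme-like cells, as given above. COL3A1 was at 188 and 0 CPM in CDX1 cells and at 1165 and 594 CPM in the others (log2 −3.26, SE 0.45, edgeR adjusted p = 2.71e-09). LUM was at 78.1 and 0 CPM against 591 and 490 CPM (log2 −3.66, SE 0.52, edgeR adjusted p = 8.94e-09), and IGFBP3 at 46.9 and 0 CPM against 505 and 456 CPM (log2 −4.19, SE 0.59). DCN, or decorin, had 0 UMIs in the CDX1 cells and 1590 in the others, at least 5.69-fold lower. These groups did not overlap for any of the 4 genes.

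None of the genes asked about beside CDX1 passed the test at equal depth. TFAP2A was at 46.9 and 136 CPM in CDX1 cells and at 56.3 and 82.9 CPM in the others, from 6 UMIs (log2 −0.25, SE 0.65, edgeR adjusted p = 1). POU5F1 was at 46.9 and 182 CPM against 38.6 and 71.7 CPM, higher in each sample (log2 0.37, SE 0.67, adjusted p = 1), and MESP1 at 93.8 and 0 CPM against 25.7 and 8.86 CPM (log2 1.40, SE 1.06, edgeR adjusted p = 1). No posterior HOX gene of 6 tested was called, and HOXB9 was at 156 and 90.9 CPM against 90.5 and 54.0 CPM (log2 0.45, SE 0.49). Neither HAND1 nor GABRP was called. The 8 dissociation genes summed to 828 and 682 CPM in CDX1 cells and to 1220 and 1577 CPM in the others, with none called, and their part in the other differences was not tested.

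Without thinning, 89 and 65 CDX1 cells were compared and 741 of 14498 genes were called, 5.11%, with 335 higher (2.31%) and 406 lower (2.8%). Here the depths differed as given above. The nascent mesoderm genes MESP1, TBXT, MSGN1 and MIXL1 rose, of 8 tested, and LHX1, a leading gene of the MESP1 and MSGN1 cluster, fell. MESP1 was at 171 and 110 CPM in CDX1 cells and at 20.4 and 6.20 CPM in the others (log2 3.47, SE 0.18), and was seen in 40.4% and 24.6% of them. TBXT, or brachyury, a factor of the primitive streak, was seen in 20.2% and 13.8% of CDX1 cells and in 1.78% and 1.51% of the others.

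Pluripotency genes rose beside CDX1 as well, 6 of 12: POU5F1, SALL4, TDGF1, L1TD1, DNMT3B and LIN28A. POU5F1 was at 172 and 187 CPM against 53.9 and 84.8 CPM (log2 1.38, SE 0.12). NANOG and SOX2 were not called. Among genes whose mean log2 CPM was 6 or more, NTS had the largest rise, at 511 and 325 CPM against 90.4 and 38.4 CPM (log2 2.73, SE 0.10), and FABP5, a fatty acid carrier, was at 888 and 568 CPM against 382 and 327 CPM (log2 1.00, SE 0.07). Both samples showed each of these rises.

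FABP5 was also the gene most like CDX1 over thinned cells, with correlations of 0.091 in blastoid 3 and 0.107 in blastoid 4, followed by CAMKK2, PDHA1, NARS and HOXB-AS3 at 0.063 to 0.077 in the lower sample. Values this small in sparse counts are a description only.

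Of the WNT, FGF and retinoic acid list, 7 of 19 rose beside CDX1 without thinning, among them WNT3A, WNT8A, SP5 and FGF4, and LEF1 fell. HOXB9 was the only posterior HOX gene of 10 called, at 131 and 65.2 CPM against 82.1 and 50.5 CPM (log2 0.54, SE 0.15). HAND1 was lower, at 546 and 710 CPM against 718 and 815 CPM (log2 −0.31, SE 0.06). TFAP2A and GABRP were not called, at log2 differences of 0.01 and −0.08. Of the 21 genes called at equal depth, 20 were called in the same direction without thinning, where the same UMIs were counted again, so this is no separate support.

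The paralogues were set against each other directly in cells with CDX2 alone and cells with CDX1 alone. At equal depth these were 249 and 23 cells in blastoid 3, and 153 and 11 in blastoid 4. The edgeR test called 16 of 3147 genes, 0.508%, of which 10 were higher (0.318%) and 6 lower (0.191%) in CDX2 cells. DESeq2, scaling by library size only and a second random thinning each called 0, with 233 genes at an unadjusted p under 0.05 in the main test, so none of the 16 is secure.

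PITX1, a hindlimb and lateral mesoderm factor, was at 470 and 817 CPM with CDX2 alone and at 261 and 227 CPM with CDX1 alone (log2 1.36, SE 0.33, edgeR adjusted p = 0.0128). LUM was also higher with CDX2 alone, at 265 and 425 CPM against 109 and 0 CPM. KRT7 was at 16.1 and 9.80 CPM against 130 and 182 CPM (log2 −3.25, SE 0.58, edgeR adjusted p = 0.00147), and HPGD, which breaks down prostaglandins, at 42.2 and 39.2 CPM against 152 and 454 CPM (log2 −2.49, SE 0.55, edgeR adjusted p = 0.00267). The groups of all 4 genes did not overlap. Of the 16 genes, 14 were called in the same direction without thinning. The thinned counts are part of the same UMIs, so this overlap is no separate support.

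With 604 and 501 CDX2 cells against 39 and 34 CDX1 cells and no thinning, 570 of 11836 genes were called, 4.82%, with 1.52% higher and 3.3% lower with CDX2 alone. CDX1 cells were deeper, at 7928 and 10531.5 UMIs against 6856 and 9656. Mesoderm and mesenchyme genes were higher with CDX2 alone, 12 of 15, and COL1A2 was lower. HAND1 was at 781 and 1014 CPM against 636 and 530 CPM (log2 0.59, SE 0.10), and HOXA9, HOXB9 and HOXA10 rose of 8 posterior HOX genes, with HOXA9 at 72.0 and 66.3 CPM against 24.1 and 21.0 CPM (log2 1.59, SE 0.33).

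Genes of amnion and of pluripotency were higher with CDX1 alone in that comparison. Of 9 amnion genes 5 were lower with CDX2 alone, with TFAP2A at 32.6 and 40.3 CPM against 99.4 and 126 CPM (log2 −1.65, SE 0.24, edgeR adjusted p = 4.69e-10) and GABRP at 18.5 and 50.4 CPM against 72.3 and 265 CPM (log2 −2.30, SE 0.22). Of 11 pluripotency genes 5 were lower with CDX2 alone, with POU5F1 at 35.6 and 44.3 CPM against 169 and 215 CPM (log2 −2.29, SE 0.20) and NANOG at 2.08 and 3.18 CPM against 18.1 and 23.6 CPM. MESP1 was lower too, at 27.5 and 11.3 CPM against 81.3 and 44.6 CPM (log2 −1.74, SE 0.32, edgeR adjusted p = 4.55e-06). Cells with both genes are left out here, and they were common in the MESP1 and MSGN1 cluster, where 33 of 42 and 13 of 15 CDX1 cells held CDX2.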

How the data were processed

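The 4 libraries, 2 of KhES1 stem cells and 2 of blastoids, were made with the 10x Chromium 3′ v3.1 kit, per the labels' protocols. For each sample the authors deposited a table of UMI counts per gene and barcode. Cell Ranger and the build GRCh38 are named in the submitters' processing notes, and the annotation, the filters and the use of strand are not given in the sources used here. CDX1, CDX2 and all gene lists were chosen with earlier results of these data known. Cells needed 500 genes or more, and no deposited barcode exceeded 20% mitochondrial UMIs. Scrublet (scanpy 1.11.5) marked 76 of 9680 cells as doublets (0.79%), which were left out, and others may remain. Clustering left out CDX1, CDX2 and CDX4 and used 2000 variable genes, 30 components, 15 neighbours and Leiden resolution 0.5, and 66 markers of 7 classes named the clusters. UMI counts were summed per sample, or per sample and detection status in cells thinned to 2000 UMIs. Sums were tested with edgeR 4.0.16 (TMM, filterByExpr, quasi-likelihood, Benjamini-Hochberg adjustment over all genes tested, threshold 0.05), a step tested on simulated counts. Genes named are those of the lists, the 10 largest rises and 5 largest falls (called, mean log2 CPM of 6 or more, 1 direction in both samples), and the 5 most correlated. Alternatives were DESeq2 1.42.0, other scaling, filters, depths and resolutions, and leaving out samples. Some results for single genes are not reported here.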

Additional observations from a re-analysis of the deposited data

Results flagged for a closer look

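No comparison used the barcodes below the minimum of 500 genes, and blastoid 3 had CDX2 signal among them. CDX2 had 19 UMIs in 19 of its 1198 such barcodes, which is 41.8 CPM, against 1 UMI in 120 barcodes of blastoid 4 and 0 UMIs in 3676 and 4400 barcodes of the stem cell samples. Of the 19 barcodes, 14 were the barcode of a kept cell of blastoid 4, and 7 of those kept cells also held CDX2. Blastoid 3 and blastoid 4 shared 1035 barcodes, none of them kept in both. The same share over all 1198 low barcodes of blastoid 3 is not given, so 14 of 19 may not be particular to CDX2. CDX1 had 5 UMIs in 4 of these barcodes of blastoid 3. Where these UMIs came from was not tested.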

How the results depend on the processing

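CDX1 and CDX2 kept their direction against stem cells under all 10 alternatives, which was fixed because neither gene has a row in the stem cell tables. Their bounds were 10.84 to 20.98 and 110.5 to 190.8 when 1 sample was left out. Leaving out 1 sample moved the count of genes called between blastoids and stem cells from 8147 to between 4888 and 10087, with fewer calls without either stem cell sample. Shares of cells moved with depth: CDX1 was 0.378% at 1000 UMIs, 1.99% at 4000 and 3.65% without thinning, and CDX2 was 6.47%, 18.2% and 28.2%. In the cluster with most cells of the MESP1 and MSGN1 cluster, CDX1 was 44.7 CPM at resolution 0.3 and 32.9 CPM at resolution 1, and CDX2 197.9 and 218.7 CPM, the highest level among clusters with at least 20 cells in each blastoid sample. At resolution 1 the cluster parted into one of 204 cells led by HOXA-AS3 and MSGN1, used here, and one of 65 cells led by MESP1 and LHX1, with 14 cells in blastoid 4 and left out of that order.

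No paired analysis was possible because the stem cell and blastoid samples share no replicate number; the block below is the sample from which both sums came. For cells with and without CDX2 the count of genes called was 236, and it was 15 with DESeq2, 2 with no replicate block, 2755 with no thinning, 76 at 1000 UMIs, and, among alternatives chosen after seeing the data, 1855 with detection by at least 2 UMIs and 156 without the MESP1 and MSGN1 cluster. For CDX1 it was 21, against 0 with DESeq2, 741 with no thinning, 296 by at least 2 UMIs and 11 without that cluster, and the split of 0 higher and 21 lower became 6 and 16 with library size only. For CDX2 alone against CDX1 alone it was 16, against 0 with DESeq2, with library size only, at 1000 UMIs and in a second thinning, 3 with no replicate block and 570 with no thinning. Within the mesoderm/mesenchyme-like class it was 86, against 11 with DESeq2 and 1 with no replicate block. The cause of these changes was not tested.

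Some named genes changed sign under an alternative. In a second thinning POU5F1 was 0.01 for CDX2, HOXB9 −0.20 for CDX1 (−1.46 at 1000 UMIs), CENPF −0.20 for CDX2 alone, and HAND1 0.08 within the class, where it was 0.00 with DESeq2 and with no replicate block. TFAP2A was 0.14 for CDX1 with library size only and 0.01 with no thinning. With blastoid 3 left out, and then blastoid 4, values without a test took both signs. For CDX2, HAND1 was 0.38 and −0.08 and MESP1 −3.40 and 0.43. For CDX1, TFAP2A was 0.71 and −0.26, HAND1 0.12 and −0.12, MESP1 −3.30 and 1.83 and HOXA9 0.42 and −1.66. Within the class, HAND1 was 0.07 and −0.12, POU5F1 −3.43 and 1.49 and HOXB9 −0.32 and 0.52. With a single UMI in most CDX cells, depth limits every comparison of detected and undetected cells.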
